A study of Mus musculus with 20 samples.

Results

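The genes described here encode the voltage-gated calcium and sodium channels of the mouse cortex, their auxiliary subunits, and the HCN pacemaker channels. They were chosen by gene symbol (Cacna, Cacnb and Cacng genes, Scn genes ending in a or b, and the Hcn genes, with Scn4b left out) and had at least 10 counts in at least 4 libraries. Of the 42 symbols that matched, 39 met this limit, among 15779 of the 23413 gene names in the count tables that did. The muscle channel genes Cacng1, Cacng6 and Scn4a matched by name but were below the limit. Scn2a, which encodes a main sodium channel of excitatory neurons, is listed in the tables under its older symbol Scn2a1, which the choice by symbol does not match. It is shown beside the members, as is Scn4b.

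RNA was from the cortex of 20 mice aged 22 months, 1 library per mouse. All carried the human APOE4 sequence in place of mouse Apoe (a knock-in, labelled APOE4KI), were housed alone and ate isocaloric rations, and no mice without APOE4 were among the libraries. From the age of 10 months and for 12 months they were fed the control diet (CD, SD in the labels), rich in carbohydrate, or the ketogenic diet (KD), rich in fat and nearly free of carbohydrate. There were 5 females on the CD and 4 on the KD, and 5 males on the CD and 6 on the KD, and mice are named by their animal number (E61, for example).

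Voltage-gated channels open when the membrane depolarizes. The pore of a calcium channel is its α1 subunit (Cacna1 genes), in the Cav1 (L-type), Cav2 (P/Q-, N- and R-type, which drive transmitter release) and Cav3 (T-type, low-threshold) families, and its amount at the surface and gating depend on the α2δ (Cacna2d) and β (Cacnb) subunits. Most Cacng genes of the brain encode transmembrane AMPA receptor regulatory proteins (TARPs), which carry and tune glutamate receptors. Sodium channels (an Scn α pore with Scn β subunits) start and carry the action potential, and the HCN channels pass the current that opens on hyperpolarization and sets dendritic integration and pacemaking.

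The libraries held 12207161 to 29109990 counts. They fell by library number into 2 series, with each group in both, and series 1 held 21015275 to 29109990 counts and series 2 held 12207161 to 17697342. Xist, which only female cells use, was at 319 CPM or more (CPM, a library's counts scaled to a common total) in every female, whereas no male exceeded 7.59 CPM, and Ddx3y was at 14.0 CPM in CD female E228, at most 1.64 CPM in the other females and 164 CPM or more in the males. Mouse Apoe, which the knock-in replaces, was at 1.33 to 3.34 CPM. Mice with the same group label were not copies of each other, with chi-square values per degree of freedom of 7.25 to 115 over 41 pairs. The cortical label was checked against its markers, and 5 libraries stood apart. The summed level of 12 markers of striatal spiny neurons (the projection neurons of the striatum) was over 1000 CPM in KD females E61, E68 and E207 (2565 to 3256 CPM), in CD female E249 (1188 CPM) and in KD male E59 (3804 CPM), and at most 653 CPM in the other 15. The summed level of 8 markers of cortical excitatory neurons was 383.6, 396.7, 448 and 392.3 CPM in E61, E68, E207 and E249, and at least 785 CPM in all the others, E59 included. Drd1a, a dopamine receptor gene of these striatal neurons, ranged from 15.5 to 326 CPM, and the cortical glutamate transporter gene Slc17a7 from 149.7 to 607 CPM. KD male E64 had the highest summed level of 5 hippocampal markers, 193.5 CPM against 21.1 to 120.0 CPM elsewhere. No marker of these lists was at 0 in a group. In bulk tissue, fewer cells of a type and less RNA per cell cannot be told apart.

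Per length, the members spanned over 3 orders of magnitude. Levels between genes were compared as RPKM (CPM per kilobase of annotated exon). Among the highest were Scn2b, which encodes a β subunit that brings sodium channels to the surface, at 110.0 ± 15.4 RPKM (mean ± SD over the 20 libraries), and the calcium channel β4 subunit gene Cacnb4 at 71.8 ± 15.7. For comparison, Scn2a was at 80.8 ± 11.1 RPKM. Of the sodium channel pore genes of adult brain, Scn1a (Nav1.1, strong in fast-spiking interneurons) was at 49.4 ± 12.3 and Scn8a (Nav1.6, at the axon initial segment) at 23.9 ± 4.16. Neighbours in this order overlapped widely in their ranges over mice, for example 19.1 to 77.6 RPKM for Scn1a and 29.9 to 66.5 RPKM for Cacna2d1. At the other end were genes best known from muscle, retina or sensory neurons. The skeletal muscle channel gene Cacna1s was at 0.0907 ± 0.066, the retinal Cacna1f at 0.0831 ± 0.0333, and the pain-neuron channels Scn10a and Scn11a at 0.0818 ± 0.0381 and 0.0584 ± 0.0679 RPKM. Scn11a had 10 or more counts in 6 libraries, Cacna1s in 10 and Scn10a in 13. Those of Scn11a were CD female E249, KD females E61, E68 and E207, and KD males E64 and E254. Scn11a thus met the level limit mostly through KD mice, and its diet differences below are not independent of that choice.

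**Figure D1:**
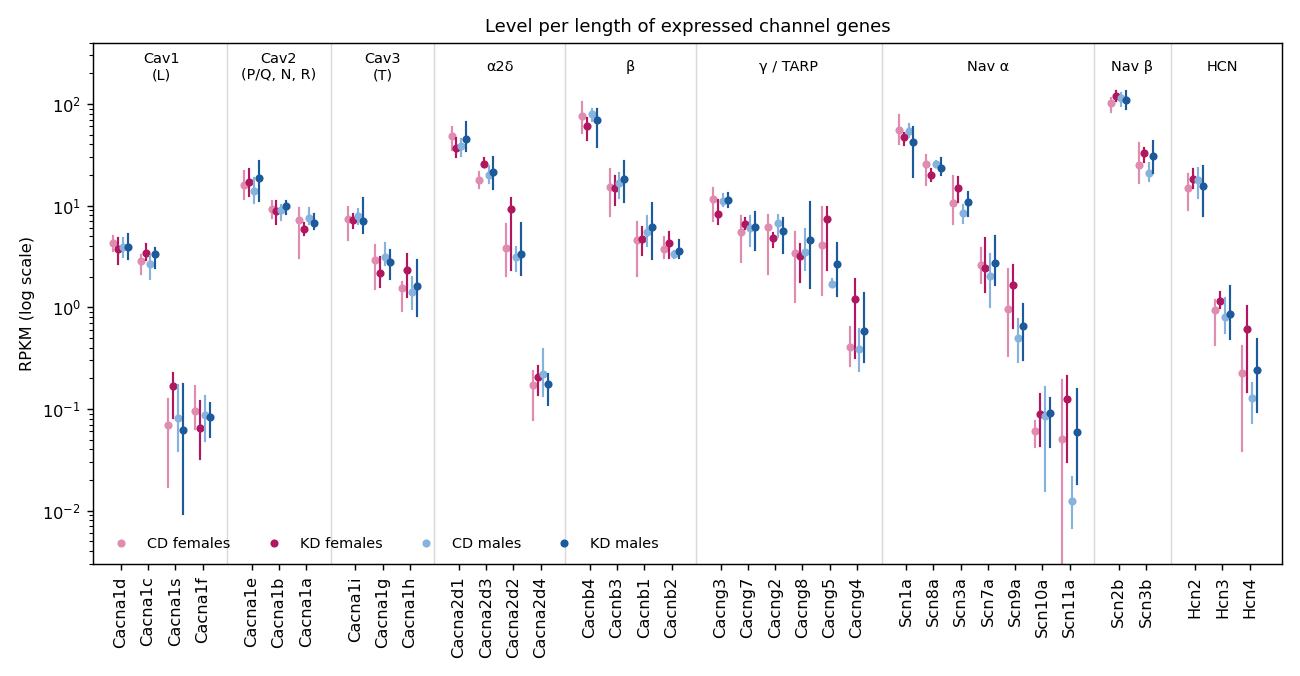
Level per length (RPKM, log axis) of 36 members by subfamily. Points are the means of the 4 groups and lines run from the lowest to the highest mouse, with a line that reaches the lower edge standing for a mouse at 0 (Scn11a in CD females); Scn2b and Cacnb4 are high and Scn11a is low.

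In the mean over the 20 libraries, 1 or 2 genes made up most of the level of each subfamily, least clearly among the TARP genes. In KD females the highest shares of the summed TARP RPKM were 26.7% (Cacng3), 23.05% (Cacng5) and 20.9% (Cacng7). Among the pore genes, Cacna1e (R-type, 16.5 ± 4.72 RPKM) exceeded Cacna1b (N-type, 9.26 ± 1.32) and Cacna1a (P/Q-type, 6.86 ± 1.55) in mean level, and it held 49.4% ± 10.2 of the summed Cav2 RPKM in CD females and 53.3% ± 5.39 in KD females. Of the L-type genes, Cacna1d was at 3.97 ± 0.762 and Cacna1c at 3.05 ± 0.581 RPKM. The thalamic and cortical T-type gene Cacna1i was at 7.41 ± 1.78, Cacna1g at 2.79 ± 0.831 and Cacna1h at 1.69 ± 0.729. For the α2δ subunits the order was Cacna2d1 (42.5 ± 9.51), Cacna2d3 (21.0 ± 4.33), Cacna2d2 (4.60 ± 3.25) and Cacna2d4 (0.192 ± 0.0645). After Cacnb4, the β subunit genes were Cacnb3 (16.5 ± 5.14), Cacnb1 (5.32 ± 2.06) and Cacnb2 (3.69 ± 0.685). The TARP genes were led by Cacng3 (10.8 ± 2.32), followed by Cacng7 (6.03 ± 1.71), Cacng2 (stargazin, 5.88 ± 1.66), Cacng8 (3.74 ± 2.14), Cacng5 (3.71 ± 3.04) and Cacng4 (0.617 ± 0.47). Other sodium channel genes were Scn3b (27.1 ± 8.37), Scn3a (11.0 ± 3.78), Scn7a (a sodium-level sensor, 2.47 ± 1.07), and Scn9a (0.889 ± 0.698). Of the HCN genes, Hcn2 was at 16.6 ± 4.82, and Hcn3 (0.924 ± 0.32) and the pacemaker gene Hcn4 (0.282 ± 0.249) were lower. The annotated exons of 12 members, among them Cacna2d2, Scn9a, Cacnb4 and Hcn3, share bases with another gene, and since the strand counted is not given in the sources used here, part of their counts may come from that gene.

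Seen mouse by mouse, the members did not move as 1 block. The plot of z-scores shows E61, E68 and E207 high together in Cacna2d2, Cacng4, Cacng5, Scn3a, Scn9a, Scn11a and Hcn4 and low together in Cacng3, with the fourth KD female, E227, within the range of the CD females in these genes. CD female E249 shared the high Cacng5, Scn3a, Scn9a and Scn11a and the low Cacng3. It was at the lowest level of the 9 females in 11 of the 39 members, as was CD female E265, and KD female E61 was the highest in 10. Among the males, KD male E64 was the highest in 11 members, with 25.4 CPM of Cacng8, and was the lowest for Scn1a, at 214 CPM. KD male E59 was the highest in 10.

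**Figure D2:**
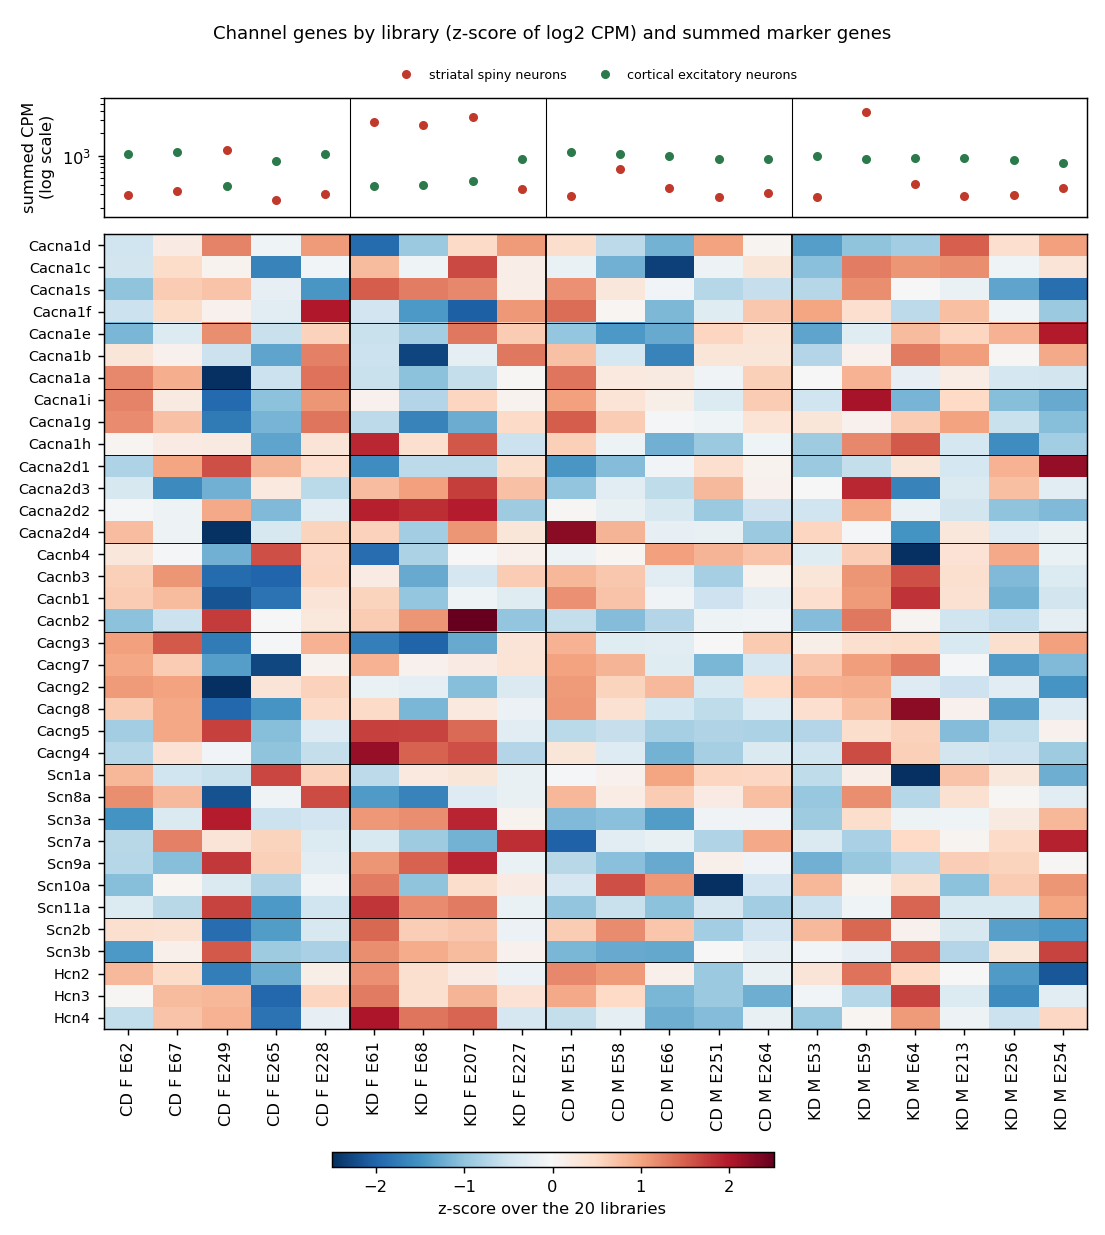
Lower panel, z-score over the 20 libraries of log2(CPM + 0.1) for 36 members, with libraries grouped by diet and sex. Upper panel, summed CPM (log axis) of 12 striatal and 8 cortical excitatory markers in the same libraries; E61, E68, E207, E249 and E59 are the 5 with striatal sums over 1000 CPM.

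The first comparison asked whether the KD altered channel genes in females. In edgeR's quasi-likelihood test across 15660 genes, 0 of the 39 members passed FDR 0.1 (the Benjamini-Hochberg adjusted p) with a 1.5-fold change, against 7 of all genes (0.0447%). At an unadjusted p under 0.05 there were 10 members (25.6%), against 11.4% of all genes, 5.86% higher and 5.5% lower. The 6 higher on the KD were Cacng4, Cacna2d2, Cacna2d3, Scn9a, Hcn4 and Scn3a, and the 4 lower included Cacng3, Scn8a and Cacna2d1. The median log2 fold change (KD over CD) was 0.15 over the members and 0.013 over all genes. edgeR's likelihood ratio test passed 1 member (Cacng4, higher), against 220 of all genes (1.4%), and DESeq2 passed 2 (Cacng4, higher, and Cacng3, lower), against 253 (1.63%). These counts moved with single mice, for all genes as for the members. Without CD female E249, 12 members and 1046 of all genes (6.66%) passed, and without KD female E227, 9 members and 906 of all genes (5.68%) did. In both selections the females of the diets no longer overlapped in striatal marker sum. Without E249 the gap was narrow, at most 339 CPM on the CD and 357 CPM in E227. With the 5 libraries of high striatal marker sum left out, a choice made after the data were seen that leaves E227 as the only KD female, 0 members passed and 2 (Scn8a and Cacnb2, both lower) had an unadjusted p under 0.05, against 3.7% of all genes. When a score of the striatal markers entered as a covariate, 0 passed and 1 (Cacnb2) had an unadjusted p under 0.05, against 4.75% of all genes. The score was 1.49 to 1.79 in E61, E68 and E207 and -0.389 in E227, against -0.873 to 0.708 in the CD females. It largely went with the diet in females, so this fit cannot separate diet from striatal markers. Its markers include Drd1a, Adcy5 and Ppp1r1b (Darpp32), which the authors reported as induced by the KD in females. In the main comparison of females, 12 of 12 striatal markers were higher, 10 of them at an unadjusted p under 0.05, and 0 of 8 cortical excitatory markers were higher, with 4 lower at that p. Of 5 hippocampal markers 4 were higher, 1 at that p. Their summed level was 59.2 to 120.0 CPM in the KD females, E227 included, and 21.1 to 47.2 CPM in the CD females. Of 6 inhibitory neuron markers 4 were higher, with 2 higher and 1 lower at that p. In each other list at most 2 markers were at that p. Beyond the striatal covariate and leaving the libraries out, the part of these cell types in the female values was not tested.

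**Figure D3:**
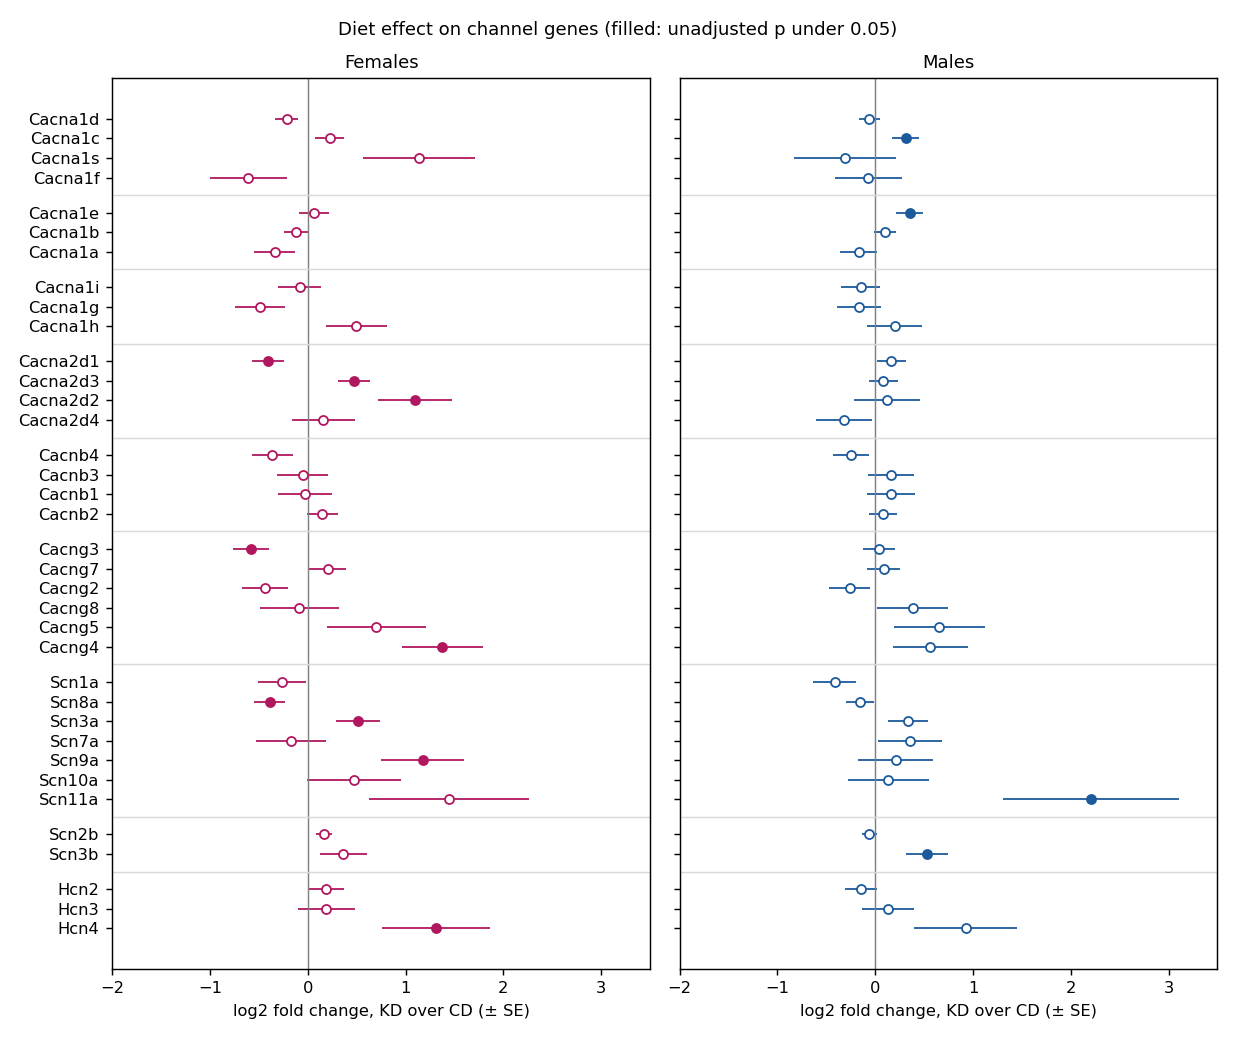
log2 fold change (KD over CD) with its SE from edgeR for 36 members in females and in males, filled where the unadjusted p is under 0.05. Of those shown 9 are filled in females, in both directions, and 4 in males, all to the right of 0; 0 passed FDR 0.1.

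The α2δ subunits, which bring calcium channels to the presynaptic membrane and bind gabapentin in the case of α2δ-1 and α2δ-2, had 3 of 4 members at an unadjusted p under 0.05 in females, in both directions. That p was reached by 11.4% of all genes. Cacna2d3 (chr14:28904943-29721864, minus strand, GRCm38) was at 129.7, 141, 156, 165 and 188 CPM in the CD females and 208, 210.0, 221 and 254.5 CPM in the KD females. All 4 KD females were above all 5 CD females, E227 included. Cacna2d3 was the only 1 of 39 members whose diets did not overlap in females. Over all genes 2.1% did not overlap (1.7% in this direction), a share near that of the members. The edgeR log2 fold change of Cacna2d3 was 0.47 (SE 0.17, unadjusted p = 0.0111, adjusted p = 0.281), and the exact permutation p was 0.0159 (two-sided, over 126 splits of the 9 females, where the smallest possible is 0.00794). Within series 1 and series 2 alone it was 0.51 (SE 0.28) and 0.44 (SE 0.18). The females of series 1 were E62 and E67 on the CD and E61 and E68 on the KD. Their striatal marker sums were 297 and 339 CPM on the CD and 2803 and 2565 CPM on the KD. In the female values of series 1, here and below, diet and striatal marker level thus cannot be told apart. With the striatal score as a covariate the Cacna2d3 difference was 0.24 (SE 0.19), and without the 5 libraries it was 0.17 (SE 0.22). Cacna2d2 (chr9:107399612-107529343, plus strand) was at 16.3, 26.3, 28.3, 30.1 and 52.5 CPM on the CD and 18.4, 88.1, 93.4 and 93.7 CPM on the KD. E61, E68 and E207 were close to each other and above every other library, and E227 was among the lowest. For Cacna2d2, edgeR gave a log2 fold change of 1.10 (SE 0.37, unadjusted p = 0.00865, adjusted p = 0.255), and the exact permutation p was 0.103. The value was 1.59 (SE 0.33) in series 1 alone and 0.76 (SE 0.59) in series 2 alone. With the striatal score as a covariate the Cacna2d2 difference was -0.00102 (SE 0.23), and without the 5 libraries it was -0.30. Cacna2d1 (chr5:15934691-16374511, plus strand), the most abundant of the 4, was at 438, 565, 619, 637 and 729 CPM in the CD females and 371, 448, 449 and 568 CPM in the KD females. E61, E68 and E207 lay below 4 of 5 CD females, and CD female E62 was among the KD values. In edgeR, the log2 fold change of Cacna2d1 was -0.41 (SE 0.16, unadjusted p = 0.0223, adjusted p = 0.343), and the exact permutation p was 0.0873. Series 1 alone gave -0.43 (SE 0.24) and series 2 alone -0.40 (SE 0.23). Its share of the summed α2δ RPKM was 68.3% ± 5.01 in CD females (n = 5) and 51.3% ± 8.31 in KD females (n = 4), and that of Cacna2d3 was 25.9% ± 5.37 and 35.5% ± 2.04. No test was run on the shares. Cacna2d4, at under 3 CPM in every female, had a log2 fold change of 0.16 (SE 0.32).

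The bases just before the start of 3 of these genes are shown because Cacna2d1 was lower, and Cacna2d3 and the sodium channel gene Scn9a higher, at an unadjusted p under 0.05, and because their RefSeq and GENCODE starts are the same base. Each line gives the 250 bases before the start on the gene's strand, from RefSeq GRCm38.p6. Capitals mark TGACG, the core of the cAMP response element to which CREB binds, on either strand.
Cacna2d1 (chr5:15934441-15934690, plus strand): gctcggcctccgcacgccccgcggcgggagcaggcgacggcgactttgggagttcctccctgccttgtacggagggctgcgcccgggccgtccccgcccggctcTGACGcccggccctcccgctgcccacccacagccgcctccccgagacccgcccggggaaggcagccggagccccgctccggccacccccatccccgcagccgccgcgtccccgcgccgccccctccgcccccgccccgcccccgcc
Cacna2d3 (chr14:29721865-29722114, minus strand): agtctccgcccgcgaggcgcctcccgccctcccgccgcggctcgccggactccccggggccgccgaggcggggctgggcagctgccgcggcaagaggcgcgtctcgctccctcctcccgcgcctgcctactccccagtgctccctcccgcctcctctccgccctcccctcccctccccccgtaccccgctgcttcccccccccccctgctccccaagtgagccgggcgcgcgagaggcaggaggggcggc
Scn9a (chr2:66634963-66635212, minus strand): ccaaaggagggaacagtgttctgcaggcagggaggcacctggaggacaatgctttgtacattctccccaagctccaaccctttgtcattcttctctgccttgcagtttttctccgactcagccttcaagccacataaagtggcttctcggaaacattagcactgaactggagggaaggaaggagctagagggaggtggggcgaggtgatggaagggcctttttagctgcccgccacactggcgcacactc
GC made up 82.4%, 80% and 54.4% of these windows. RefSeq windows were matched for 28 of the 39 members (38 windows). The full element TGACGTCA was in 0 of the 38 windows and in 1.55% of 32851 windows of all genes. TGACG on either strand, which the full element contains, was in 6 of 38 (15.8%, in Cacna1b, Cacna1c, Cacna1i, Cacna2d1, Cacnb2 and Scn10a) and in 17.8% of all. These are matches of letters in a short window and do not show binding.

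The TARPs had 2 of 6 members at an unadjusted p under 0.05 in females, against 11.4% of all genes. Cacng3 (γ3, chr7:122670492-122769393, plus strand) was at 19.4, 28.8, 35.8, 37.1 and 41.7 CPM in the CD females and 18.3, 19.6, 21.7 and 31.4 CPM in the KD females. The lowest CD value was that of E249 and the highest KD value that of E227, so the groups overlapped through these 2 mice. The difference in Cacng3 was, in log2 units from edgeR, -0.58 (SE 0.19, unadjusted p = 0.00543, adjusted p = 0.236), and the exact permutation p was 0.111. Within series 1 and series 2 alone it was -1.10 (SE 0.16) and -0.15 (SE 0.27). Cacng3 passed the threshold in series 1 alone and without E227 or E249. In each of these selections the females of the diets did not overlap in striatal marker sum. Cacng4 (γ4, chr11:107732357-107794557, minus strand) was at 0.953, 1.14, 1.24, 1.72 and 2.27 CPM on the CD and 1.14, 4.48, 4.86 and 6.79 CPM on the KD. 3 of 4 KD females were above every CD female, and E227 was within the CD range. The edgeR log2 fold change of Cacng4 was 1.38 (SE 0.42, unadjusted p = 0.00387, adjusted p = 0.23), and the exact permutation p was 0.0714. The value was 1.67 (SE 0.60) in series 1 alone and 1.12 (SE 0.54) in series 2 alone. Without the 5 libraries its difference was -0.11 (E227 against 4 CD females). Cacng5 (γ5), which lies next to Cacng4 on chromosome 11 (chr11:107874605-107915055), was at 5.08, 5.80, 8.59, 21.8 and 37.0 CPM and 8.85, 30.2, 36.7 and 36.9 CPM. Its highest CD values, in E249 and E67, reached the KD values, and its log2 fold change was 0.70 (SE 0.51). The edgeR adjusted p of Cacng5 was 0.68. Cacng2, which carries AMPA receptors to the synapse, averaged 34.2 ± 13.2 CPM in CD females and 26.7 ± 3.47 CPM in KD females, and neither Cacng7 nor Cacng8 had an unadjusted p under 0.05.

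Among the HCN channels, Hcn4 (chr9:58823412-58863175, plus strand), the slow channel of thalamus and heart, was at 0.238, 0.761, 1.07, 2.27 and 2.54 CPM and 0.897, 3.71, 4.05 and 6.25 CPM, again with E61, E68 and E207 on top. For Hcn4, edgeR gave a log2 fold change of 1.31 (SE 0.55, unadjusted p = 0.0284, adjusted p = 0.365), and the exact permutation p was 0.111. Series 1 alone gave 1.65 (SE 0.70) and series 2 alone 0.88 (SE 0.81). Hcn2, which responds strongly to cAMP, averaged 48.0 ± 15.8 CPM on the CD and 58.1 ± 10.7 CPM on the KD (log2 fold change 0.19, SE 0.18).

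Of the 8 sodium channel pore genes, 3 had an unadjusted p under 0.05 in females, against 11.4% of all genes. Scn9a (Nav1.7, chr2:66480080-66634962, minus strand), best known from pain-sensing neurons and also used in the hypothalamus, was at 4.25, 5.38, 7.35, 13.4 and 30.4 CPM in the CD females and 7.95, 19.1, 24.7 and 33.3 CPM in the KD females. The highest CD value, in E249, was close to the highest KD value, in E207. In edgeR, the log2 fold change of Scn9a was 1.18 (SE 0.42, unadjusted p = 0.0122, adjusted p = 0.284), and the exact permutation p was 0.175. Within series 1 and series 2 alone it was 2.15 (SE 0.26) and 0.21 (SE 0.61). Without the 5 libraries it was -0.50. Scn3a (Nav1.3, strong in the embryonic brain), which lies in the same cluster on chromosome 2, was at 81.2, 110.1, 112, 117 and 245 CPM and 134, 185, 189.8 and 239.5 CPM, with E249 the highest of all 20 libraries. The difference in Scn3a was, in log2 units from edgeR, 0.51 (SE 0.23, unadjusted p = 0.0354, adjusted p = 0.392), and the exact permutation p was 0.151. The value was 0.88 (SE 0.21) in series 1 alone and 0.20 (SE 0.35) in series 2 alone. Scn8a was at 249.9, 366, 429, 458 and 499.5 CPM and 274, 287, 351 and 358 CPM, with the lowest female value in E249. The edgeR log2 fold change of Scn8a was -0.39 (SE 0.16, unadjusted p = 0.022, adjusted p = 0.34), and the exact permutation p was 0.198. Series 1 alone gave -0.70 (SE 0.19) and series 2 alone -0.14 (SE 0.23). Scn11a was at 0, 0.0811, 0.113, 0.143 and 1.15 CPM and 0.179, 0.732, 0.809 and 1.24 CPM, again highest in E249, E61, E68 and E207. Scn1a averaged 616 ± 171 CPM in CD females and 524 ± 65.9 CPM in KD females, and Scn2a 1014 ± 92.5 and 956 ± 95.5 CPM. Of the β subunits, Scn2b differed by 0.17 (SE 0.084) and Scn3b by 0.36 (SE 0.24), neither at an unadjusted p under 0.05. Scn4b, whose subunit is abundant in striatal spiny neurons, was at 95.9, 106, 135, 166 and 172 CPM and 78.8, 369.6, 442 and 479 CPM in the same females.

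**Figure D4:**
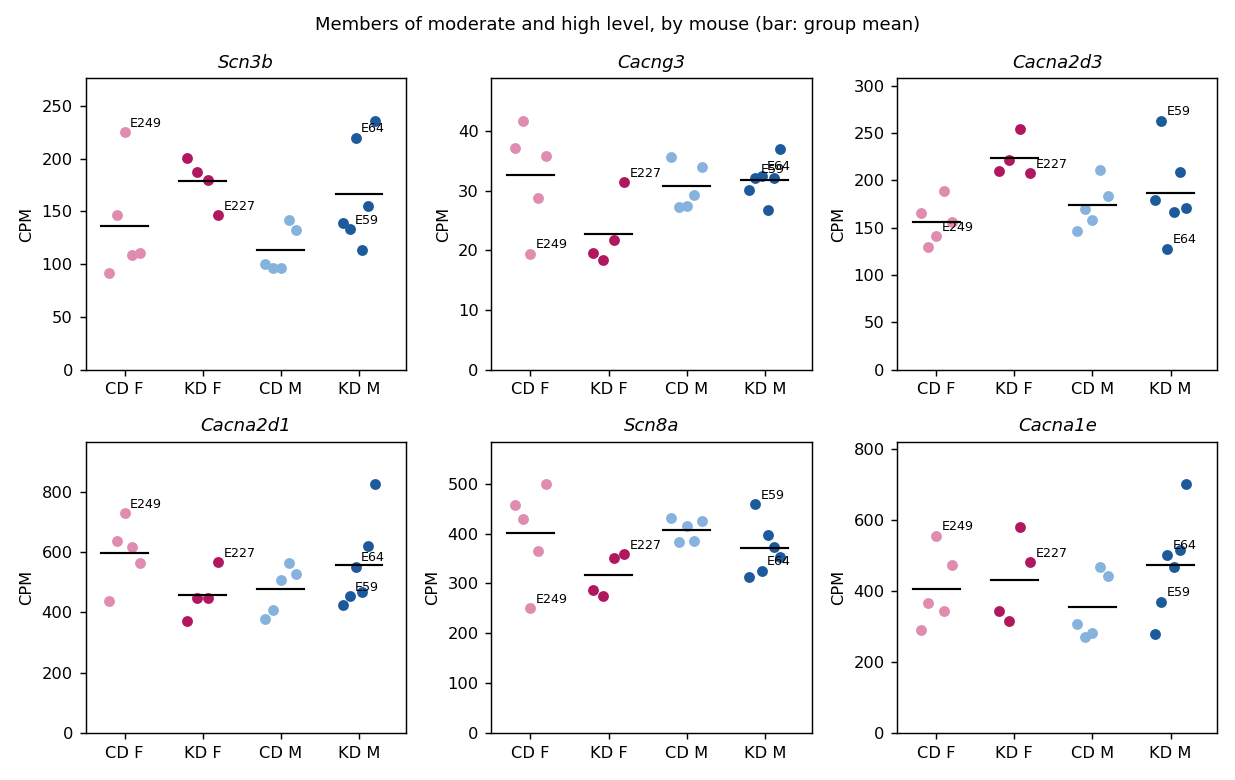
CPM of 6 members of moderate and high level in each mouse, with a bar at the group mean. E249 and E227 lie inside or beyond the other diet's range for Scn3b, Cacng3 and Scn8a, whereas for Cacna2d3 all 4 KD females lie above all 5 CD females, as for 1.7% of all genes.

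None of the 10 calcium channel pore genes and none of the 4 β subunit genes had an unadjusted p under 0.05 in females, against 11.4% of all genes. The largest log2 fold changes were those of the little expressed Cacna1s (1.14, SE 0.57) and Cacna1f (-0.61, SE 0.40), followed by the T-type genes Cacna1g (-0.49, SE 0.26) and Cacna1h (0.49, SE 0.31). Cacna1h was at 8.89, 15.7, 16.5, 16.7 and 17.4 CPM on the CD and 12.3, 17.96, 28.7 and 32.7 CPM on the KD, with E61 and E207 highest and E265 lowest. The P/Q-type gene Cacna1a averaged 81.5 ± 30.5 CPM on the CD and 66.9 ± 7.41 CPM on the KD, and the R-type Cacna1e 405 ± 107 and 429 ± 124 CPM. Cacnb4 averaged 680.1 ± 166 and 547 ± 116 CPM (log2 fold change -0.36, SE 0.21). The values of Cacnb1 and Cacnb3 were -0.028 (SE 0.28) and -0.054 (SE 0.26), and that of Cacnb2, the main β subunit of the heart, was 0.15 (SE 0.16).

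The same question was asked in males. In edgeR's test 0 of the 39 members passed FDR 0.1 with a 1.5-fold change, against 0 of all genes (0%), and the likelihood ratio test and DESeq2 each passed 0 members. At an unadjusted p under 0.05 there were 5 members (12.8%), all higher on the KD, against 3.56% of all genes (2.37% in this direction and 1.19% lower). They included Scn11a, Scn3b, Cacna1e and Cacna1c. No member's diets were free of overlap in males, against 0.217% of all genes. The median log2 fold change was 0.10 over the members and -0.003 over all genes. Without KD male E64, 0 members had an unadjusted p under 0.05, against 1.51% of all genes. Of 5 hippocampal markers, all 5 were higher in KD males, 3 at an unadjusted p under 0.05, and of 6 choroid plexus markers, 6 were higher and 5 were at that p. The choroid plexus sum was 2351 CPM in E59, 22.67 to 50.65 CPM in the other KD males and 13.67 to 61.51 CPM in the CD males. Of 12 striatal markers 12 were higher, 1 at that p, and 0 of 8 cortical excitatory markers were higher, with 0 at that p. Of 5 oligodendrocyte markers 0 were higher and 1 was lower at that p. The part of these cells in the channel values was not tested. With the 5 libraries left out (of the males, E59), 11 members had an unadjusted p under 0.05, 5 higher and 6 lower, against 7.39% of all genes, and 0 passed.

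Scn11a was at 0.0403, 0.0433, 0.0575, 0.103 and 0.126 CPM in the CD males and from 0.107 to 0.936 (median 0.163) CPM in the KD males, highest in E64, at levels of few counts. Of the males, only KD mice E64 and E254 had the 10 counts of the level limit. For Scn11a, edgeR gave a log2 fold change of 2.20 (SE 0.90, unadjusted p = 0.0244, adjusted p = 0.9998), and the exact permutation p was 0.0238 (two-sided, over 462 splits of the 11 males, where the smallest possible is 0.00216). The Nav β3 gene Scn3b (chr9:40269217-40291618), strong in early development and hippocampus, was at 96.2, 96.7, 100.2, 132 and 142 CPM and from 114 to 236 (median 147) CPM, highest in E254 and E64. In edgeR, the log2 fold change of Scn3b was 0.53 (SE 0.22, unadjusted p = 0.0244, adjusted p = 0.9998), and the exact permutation p was 0.0455. Within series 1 and series 2 alone it was 0.70 (SE 0.21) and 0.31 (SE 0.36).

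The calcium channel pore genes Cacna1e and Cacna1c had smaller differences in males. Cacna1e (chr1:154390731-154884501) was at 269, 282, 306, 442 and 466 CPM in the CD males and from 277 to 700.1 (median 484) CPM in the KD males. In both diets the mice of series 1 had lower values than those of series 2, apart from E64. The difference in Cacna1e was, in log2 units from edgeR, 0.35 (SE 0.14, unadjusted p = 0.0214, adjusted p = 0.9998), and the exact permutation p was 0.154. The value was 0.37 (SE 0.18) in series 1 alone and 0.31 (SE 0.23) in series 2 alone. Cacna1c (Cav1.2, which couples synaptic activity to transcription, chr6:118587240-119196418) was at 39.9, 49.9, 61.3, 61.9 and 67.4 CPM and from 51.6 to 82.0 (median 73.4) CPM. The edgeR log2 fold change of Cacna1c was 0.31 (SE 0.14, unadjusted p = 0.0341, adjusted p = 0.9998), and the exact permutation p was 0.0758. Series 1 alone gave 0.45 (SE 0.19) and series 2 alone 0.12 (SE 0.18). For the genes with the smallest p in females the male differences were 0.084 (SE 0.15) for Cacna2d3, 0.038 (SE 0.16) for Cacng3, 0.12 (SE 0.34) for Cacna2d2 and 0.56 (SE 0.38) for Cacng4. In Cacna2d2 and Cacng4 the highest male was E59, at 53.4 and 4.91 CPM.

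**Figure D5:**
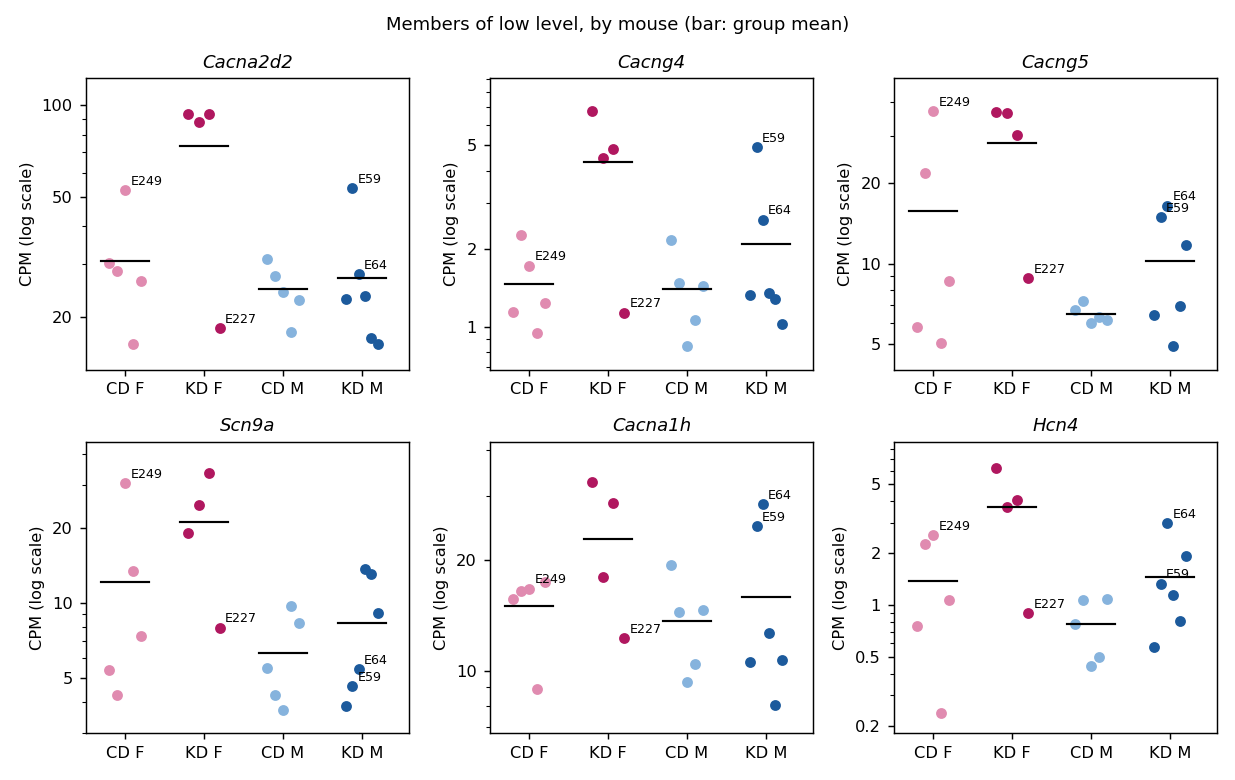
CPM (log axis) of 6 members of low level in each mouse, with a bar at the group mean. E227 lies below the other 3 KD females in all 6 genes, E249 is the highest CD female in 4 of them, and E59 or E64 is the highest KD male in all except Scn9a.

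Averaged over the sexes, 0 of 39 members passed in edgeR, against 42 of all genes (0.268%), while the likelihood ratio test passed 4 (Cacng4, Hcn4 and Scn11a among them), against 370 (2.36%), and DESeq2 passed 3 (Cacng4 and Hcn4 among them), against 351 (2.25%), all higher. At an unadjusted p under 0.05 there were 15 members (38.5%, 10 higher and 5 lower), against 13.9% of all genes (7.41% higher and 6.44% lower). Those of smallest p included Cacng4 (log2 fold change 0.97, SE 0.28), Scn11a (1.82, SE 0.61), Hcn4 (1.12, SE 0.38) and Scn3a (0.43, SE 0.15), with edgeR adjusted p from 0.142 to 0.207. As Scn11a met the level limit mostly through KD mice, its higher level on the KD is no independent result. With the striatal score as a covariate 0 members had an unadjusted p under 0.05 in this average, against 7.45% of all genes, and without the 5 libraries 7 did, 1 higher and 6 lower, against 7.88%.

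Whether the diet effect differed between the sexes was tested as an interaction (the effect in females minus that in males). 0 of 39 members passed, against 0 of all genes (0%), in edgeR, and the likelihood ratio test and DESeq2 each passed 0 members and 1 of all genes (0.00639% and 0.00642%). Of the members, 2 (5.13%) had an unadjusted p under 0.05, against 2.14% of all genes, 1.09% in the positive and 1.05% in the negative direction. These were Cacna2d1 (-0.57, SE 0.22, edgeR adjusted p = 0.9999) and Cacng3 (-0.62, SE 0.25, edgeR adjusted p = 0.9999). Cacna2d1 was lower on the KD in females and was at 378, 409.8, 509, 527 and 565 CPM in CD males and from 424 to 826 (median 510.3) CPM in KD males. No member's diet effect was thus shown to differ between females and males.

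Females and males were compared over both diets. 0 of 39 members passed in edgeR, against 21 of all genes (0.134%), and 4 passed in the likelihood ratio test and in DESeq2 (Cacna2d2, Cacng5 and Scn9a among them, all higher in females), against 286 (1.83%) and 212 (1.36%) of all genes. At an unadjusted p under 0.05 there were 8 members (20.5%), all higher in females, against 13.6% of all genes (8.59% in this direction and 4.96% lower). Cacng5 was at 21.2 ± 14.3 CPM in 9 females and 8.54 ± 3.94 CPM in 11 males (SD). In females it was over 20 CPM in E61, E68, E207, E249 and E67, above every male, and in the other 4 it was at 5.08 to 8.85 CPM. The edgeR log2 fold change (females over males) was 1.38 (SE 0.34, adjusted p = 0.14). Scn9a was at 16.2 ± 11.1 and 7.38 ± 3.64 CPM, with a log2 fold change of 1.11 (SE 0.28, edgeR adjusted p = 0.14), and from 3.71 to 13.6 (median 5.46) CPM in the males. Cacna2d2 was at 49.7 ± 33.2 and 25.9 ± 10.2 CPM (0.94, SE 0.25, edgeR adjusted p = 0.156), and from 16.3 to 53.4 (median 23.5) CPM in the males. In these 3 genes E61, E68, E207 and E249 were the 4 highest females, and the other 5 lay at or within the male range, apart from E67 in Cacng5. The values of Hcn4 and Scn3a were 1.08 (SE 0.38) and 0.36 (SE 0.15), with edgeR adjusted p of 0.243 and 0.307. The males ranged from 0.443 to 2.99 (median 1.06) CPM for Hcn4 and from 83.9 to 171 (median 126) CPM for Scn3a. Without the 5 libraries of high striatal marker sum, 0 members had an unadjusted p under 0.05, against 1.07% of all genes, and the differences were -0.21 for Scn9a, -0.000271 for Cacna2d2, -0.018 for Hcn4 and -0.082 for Scn3a, while that of Cacng5 was 0.39.

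Few members, like few of all genes, were free of overlap between the library series. In males Scn9a was at 3.71 to 5.46 CPM in the 6 libraries of series 1 and at 8.33 to 13.6 CPM in the 5 of series 2, with no overlap. It was 1 of 39 members (2.56%) in this direction, against 7.26% of all genes. Hcn2 was lower in series 2 without overlap in both sexes (at most 54.0 CPM in females and 50.6 CPM in males, against at least 57.3 and 52.5 CPM in series 1), as was Scn2b in males. These were 2.56% of the members in females and 5.13% in males, against 1.65% and 3.31% of all genes. No member was higher in series 2 without overlap in females, against 3.24% of all genes. The series was a term of every fit above that held both series.

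The list of channel partners, proteins that bind, traffic or tune these channels, was read by counts, and the partners of smallest p in females are named. Of 40 listed genes 38 were in the tables and 37 were tested. In females 5 were higher and 4 lower at an unadjusted p under 0.05, against 5.86% and 5.5% of all genes, and 0 passed FDR 0.1 with a 1.5-fold change in any comparison. Those of smallest p in females were Rem2, a small GTPase that binds calcium channel β subunits and is induced by activity (10.1 ± 5.45 CPM on the KD and 1.62 ± 1.26 CPM on the CD, log2 fold change 2.38, SE 0.65, edgeR adjusted p = 0.20), Fam155a, a subunit of the sodium leak channel (-0.32, SE 0.091, edgeR adjusted p = 0.20), and Pex5l (-0.53, SE 0.16, edgeR adjusted p = 0.23). Pex5l encodes TRIP8b, an auxiliary subunit that sets the trafficking of HCN channels, and it averaged 271 ± 78.4 CPM in KD females and 375 ± 66.3 CPM in CD females. In males, 3 partners were higher and 1 was lower at an unadjusted p under 0.05, against 2.37% and 1.19% of all genes. Rem2 averaged 4.35 ± 5.385 CPM in KD males and 2.53 ± 0.82 CPM in CD males.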

How the data were processed

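Cortical RNA from 20 mice (1 library each) was sequenced from total RNA after ribosomal depletion with a stranded kit. The authors aligned reads to mm10 with STAR and deposited raw counts per gene, not normalized, made with HTSeq counting inside STAR; the STAR version and the strand counted are not given in the sources used here. Counts were fitted here with edgeR 4.0.16 (limma 3.58.1, R 4.3.3): upper-quartile normalization, filterByExpr (15660 genes), 4 groups and library series (from the library numbers) as terms, robust quasi-likelihood F test, Benjamini-Hochberg adjustment over all genes. A gene was called at FDR 0.1 or less and at least 1.5-fold. SEs were derived from the F statistic. The authors' own normalization also used RUVg with factors not given, tried here as an alternative, as was DESeq2 1.42.0. The edgeR fit was also run on simulated counts, drawn gene by gene with no series effect and no shift shared between genes. That simulation cannot show how the fit behaves where libraries differ in tissue content. Exact two-sided permutation tests of single genes used log2 CPM (prior count 2) without the series term. RPKM used exon lengths of GENCODE vM21 (GRCm38). Mice of 1 group were the replicates, so p-values cover the spread between mice. Levels rest on counting, and precision is lowest for genes of few counts such as Scn11a (0 to 32 counts). Members, gene lists and tests were chosen with earlier results of these data known. Genes given with full statistics were the members with an unadjusted p under 0.05 in any of the 5 comparisons, at most the 6 of smallest p in each, the highest member of each subfamily, Scn2a, Scn4b, Drd1a, Slc17a7 and at most 3 partner genes per comparison; Scn8a in females was added after its values were seen, and other members are described by values seen. Counts cover all 39 members, of which 3 are not reported here one by one.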

Additional observations from a re-analysis of the deposited data

Results flagged for a closer look

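In 9 of 144 group values tested over 36 members, 1 mouse lay further from the rest of its group than Dixon's 95% limit allows, where chance alone gives 7.2. In CD females, E249 was the highest in Scn11a (1.15 CPM against 0 to 0.143 CPM, gap 0.876 of the group's range) and Scn3a (245 against 81.2 to 117 CPM, gap 0.783), and E265 was the lowest in Cacna1h (8.89 against 15.7 to 17.4 CPM, gap 0.795). In KD females, E227 was the lowest in Cacna2d2 (18.4 against 88.1 to 93.7 CPM, gap 0.926) and the highest in Scn7a, a sodium sensor gene (35.4 against 10.4 to 14.4 CPM, gap 0.839).

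In KD males, E64 was the highest in Hcn3 (6.70 against 2.03 to 3.54 CPM, gap 0.676) and in Cacng8, the TARP gene strong in hippocampus (25.4 against 3.65 to 11.5 CPM, gap 0.639). E59 was the highest in Cacna2d2 (53.4 against 16.3 to 27.7 CPM, gap 0.692), and E254 in Scn7a (36.6 against 12.0 to 20.4 CPM, gap 0.658). The summed markers of striatal neurons were over 1000 CPM in E249 and E59, and the summed hippocampal markers were highest in E64. No member's diet effect was shown to differ between the sexes.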

How the results depend on the processing

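With 0 members called in each comparison by the main setting, the count stayed 0 in males under every setting run. The counts over all genes, in brackets, moved as well. In females, where the main setting called 7 of all genes, it was 1 with 2 RUVg factors (Scn9a) [255], 9 in series 1 alone [865], 1 in the likelihood ratio test [220] and 2 in DESeq2 [253]. Averaged over the sexes [42] it was 1 with 1 RUVg factor (Scn9a) [220], 3 with 2 factors [338], 9 in series 1 alone [886], 4 in the likelihood ratio test [370] and 3 in DESeq2 [351]. For the interaction [0] it was 1 in series 1 alone (Scn9a) [14], and for the sex difference [21] 1 in series 1 alone [76], 4 in the likelihood ratio test [286] and 4 in DESeq2 [212]. TMM, DESeq2 size factors, both other filters, dropping the series term, series 2 alone, the striatal covariate and FDR without a fold limit gave 0 members.

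Leaving out 1 mouse gave 0 to 12 called members in females (12 without CD E249 [1046], 9 without KD E227 [906]), 0 to 7 in the average (7 without E249 [791], 6 without E227 [668]), 0 in males and the interaction, and 0 to 6 in the sex difference (6 without E227 [813], 3 without KD male E59 [204], 1 without CD female E62 [87] or E228 [80]). Where 1 mouse or series was left out, fewer mice entered the fit. In series 1 alone, and without E227 or E249, the females of the diets also no longer overlapped in striatal marker sum. The cause of the changes in count was not tested.

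Of the log2 fold changes, that of Cacna2d2 in females fell to a negligible size with the striatal score as a covariate (-0.00102). As the score largely went with the diet in females, that fit cannot separate diet from striatal markers. In the selection added after the data were seen, which left out the 5 libraries of high striatal sum, the lone KD female was assumed to vary like the other groups. There the values that changed sign were -0.108 for Cacng4, -0.297 for Cacna2d2 and -0.498 for Scn9a in females, and -0.207 for Scn9a, -0.000271 for Cacna2d2, -0.018 for Hcn4 and -0.0824 for Scn3a in the sex difference. Those of Cacna2d2 and Hcn4 in the sex difference were of negligible size. No paired analysis was possible because each mouse number appears in 1 group. Depth limits the genes of few counts, Scn11a, Cacna1s and Scn10a most.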
